A study of Mus musculus with 6 samples.

Results

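The 10 genes described here carry or make signals from osteoclasts to osteoblasts, and their RNA was compared between osteoclast precursors and osteoclasts. They are Spp1, Sphk1, Tgfb1, Tgfb2, Lif, Osm, Bmp1, Igf1, Pdgfa and Efnb2, chosen by symbol from a table of 26529 genes, and all 10 were found in it. The study sequenced RNA of bone marrow-derived macrophages from wild-type C57BL/6 mice aged 8 weeks. The cells received M-CSF (20 ng/ml), a macrophage growth factor, and RANKL (10 ng/ml), which makes precursors become osteoclasts. Osteoclast precursors (OCP) were cells treated for 3 days and osteoclasts (OC) cells treated for 6 days, with 3 libraries in each group and the same cytokines in both. Whether the libraries of a group stem from different mice or cultures is not in the labels; p-values thus reflect the scatter of these samples alone, and that scatter may be technical.

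In bone, resorption by osteoclasts is followed by new bone formation at the same place, and the signals that link these steps are called coupling factors. Some are stored in bone matrix and freed by resorption, such as transforming growth factor beta and insulin-like growth factor. Others are secreted by the osteoclast itself, such as osteopontin, leukaemia inhibitory factor and sphingosine 1-phosphate, and some are held in its membrane, such as ephrin-B2, which signals on contact with Eph receptors of osteoblasts. The receptors for most of them lie on osteoblasts and their precursors, which were not sequenced here, so the levels below are of the sending cell only.

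Levels are given in RPKM, reads scaled by gene length and by the library's assigned reads. Genes that reached 1 RPKM in 3 or more of the 6 libraries were tested with limma on log2(RPKM + 1), and "rose" or "fell" means an adjusted p under 0.05 over all tested genes. Of all 12301 genes tested so, 23.5% rose and 32.1% fell, the shares to set beside each count of called genes below. Library totals recovered from the table lay between 33219178 and 42121216 reads. The libraries labelled OC went against the usual direction of osteoclast markers: all 13 markers fell, with a summed level of 5410 to 5560 RPKM in OCP and 2932 to 3027 RPKM in OC. Of 11 macrophage and monocyte markers tested, 9 rose and 2 fell, 3 of them having passed the filter only in 1 group. The sum of the list lay between 5318 and 5772 RPKM for OCP libraries and between 8429 and 8935 RPKM for OC libraries. Lyz2 carried most of that step, with its mean going from 4080 to 7197 RPKM. The macrophage markers that fell were Csf1r (mean 192 to 165 RPKM) and Cd68 (854 to 721 RPKM). All 5 neutrophil markers tested, of 11 measured, rose (summed level 42.8 to 47.9 and 62.4 to 68.5 RPKM). Among 13 tested immediate early and heat shock genes 10 rose and 1 fell (965 to 990.4 and 1320.4 to 1367 RPKM). Of 13 osteoblast and stromal markers measured, 11 were under 1 RPKM in every library, with sums of 4.62 to 4.81 and 4.27 to 4.91 RPKM. The highest means in OCP and OC were those of Acta2 (1.22 and 1.19 RPKM), Col1a1 (0.851 and 1.01) and Col3a1 (0.658 and 0.643). Next came Runx2 (0.622 and 0.494), Dcn (0.603 and 0.525) and Col1a2 (0.447 and 0.549). Acta2, the only one tested, did not pass. Others were near 0, among them Sp7 and Bglap, which define osteoblasts. Sp7 averaged 0.0173 RPKM in OCP and 0.0138 RPKM in OC, and Bglap 0.0136 and 0.0141 RPKM. Lymphocyte and mast cell markers summed to 0.321 to 0.585 RPKM in OCP and 1.60 to 1.71 RPKM in OC. Their single tested marker, Lck, rose from 0.131 ± 0.0678 to 1.23 ± 0.0463 RPKM, having passed the filter only in OC. The other 10 of the 11 measured were under 1 RPKM in every library, so Lck made up most of the OC sum. Endothelial markers summed to 3.22 to 3.45 and 2.37 to 2.87 RPKM, and the 1 tested did not pass. An exchange of the OC and OCP labels was not tested; it would turn the direction of every difference below, so OC and OCP stand throughout for the libraries labelled so. The part of the macrophage, neutrophil, lymphocyte, stromal and stress lists in the results below was not tested. In such bulk samples fewer cells of a type and less RNA per cell cannot be told apart.

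Of the 10 genes, 7 were tested, and 4 of these rose (Spp1, Lif, Osm and Pdgfa), 2 fell (Sphk1 and Efnb2) and Tgfb1 did not pass. Among all 12301 tested genes 23.5% rose and 32.1% fell. The median log2 difference was 0.20 for the 7 genes and -0.05 for all tested genes. Igf1, Bmp1 and Tgfb2 were under the filter. In OCP the order of mean levels was Spp1, Tgfb1, Lif, Pdgfa, Efnb2, Sphk1, Osm, Igf1, Bmp1 and Tgfb2. The values of Efnb2 and Sphk1 overlapped there, as did those of Igf1 and Bmp1, and no other neighbours in that order overlapped. In OC the order was Spp1, Tgfb1, Lif, Osm, Pdgfa, Efnb2, Sphk1, Igf1, Bmp1 and Tgfb2, with no overlap between neighbours, so that Osm had moved above Pdgfa, Efnb2 and Sphk1. The OC and OCP values lay apart in 9 of the 10 genes and in all 7 that were tested, where 62.7% of all tested genes did the same.

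**Figure D1:**
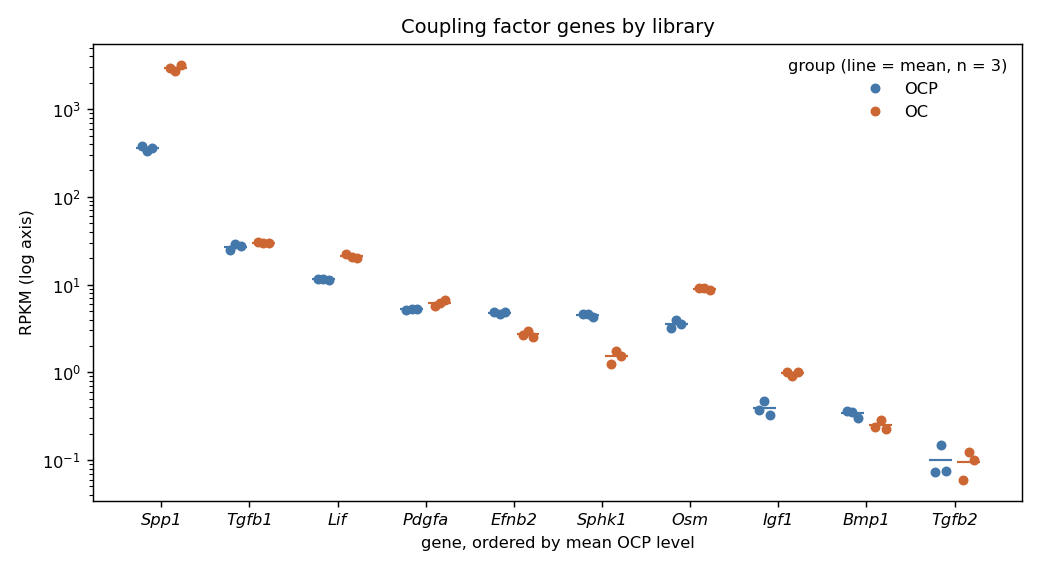
RPKM on a log axis for each of the 10 genes, with 1 point per library, a line at the mean of 3, and OCP to the left of OC. Spp1 stands above all others in both groups and reaches 2722 to 3206 RPKM in OC, Osm and Lif shift up, Sphk1 and Efnb2 shift down, and the points of Tgfb2 overlap.

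Spp1, which encodes osteopontin, a secreted phosphoprotein that binds integrins and CD44 and anchors cells to bone mineral, had the largest difference. Its position is chromosome 5, 104435118 to 104441050, plus strand (GRCm38, used for all positions below). The OCP libraries had 384, 331 and 363 RPKM and the OC libraries 2910, 2722 and 3206 RPKM. Every OC library was far above every OCP library, and the ratio of means was 8.2 (log2 difference 3.03, SE 0.07, limma adjusted p = 4.4e-08). By mean level Spp1 ranked 154 among all genes in OCP and 8 in OC, and its share of the reads went from 0.0546% to 0.0633% in OCP to 0.449% to 0.528% in OC. Only 46 of the 12301 tested genes had a larger rise in log2(RPKM + 1), a scale that shrinks the changes of low genes. On that scale Stc2, Mmp3 and Il27, all low in OCP, rose by 1.44, 1.18 and 2.76. In limma's voom fit on the recovered reads their log2 differences were 5.15, 5.51 and 3.49, and that of Spp1 was 3.08. Of its 1648 exon bases, 309 (18.8%) also belong to Gm42793, a gene model on the same strand. Gm42793 went from 49.0 ± 5.51 to 424 ± 32.7 RPKM (SD, n = 3), and no source used here tells how such reads were assigned, so their split between both genes is uncertain.

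The stretch before the start of Spp1 is shown with that of Lif, a secreted cytokine whose gene rose in the main fit and in every alternative, and with those of Sphk1 and Efnb2, whose transcripts fell. Each run is the 250 bases before the RefSeq start nearest to the start of the gene in the deposited table (RefSeq, GRCm38.p6), written 5′ to 3′ in the direction of the gene. Capitals mark matches, on either strand, to 10 short motifs. The AP-1 motif is TGANTCA, the E-box of the MiT/TFE family CACGTG and the core of the M-box CATGTG. The RUNX core is TGTGGT, the NFAT core GGAAA and the STAT motif TTCNNNGAA. The TATA box was searched as TATAAA, the CCAAT box by its name and the GC box as GGGCGG. The kappaB motif, given by name alone, contains the NFAT core on its other strand.
Spp1, chr5:104434861-104435110, plus strand: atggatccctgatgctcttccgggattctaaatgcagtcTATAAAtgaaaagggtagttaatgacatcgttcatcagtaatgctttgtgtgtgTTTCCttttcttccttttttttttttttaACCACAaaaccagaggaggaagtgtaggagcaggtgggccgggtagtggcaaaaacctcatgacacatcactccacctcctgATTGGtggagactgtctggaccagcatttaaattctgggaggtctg
Lif, chr11:4257318-4257567, plus strand: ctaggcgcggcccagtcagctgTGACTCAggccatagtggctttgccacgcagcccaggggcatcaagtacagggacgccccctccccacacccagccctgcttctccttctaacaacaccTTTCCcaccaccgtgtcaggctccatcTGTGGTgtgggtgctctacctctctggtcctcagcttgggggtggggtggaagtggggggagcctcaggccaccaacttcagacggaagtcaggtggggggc
Sphk1, chr11:116530850-116531099, plus strand: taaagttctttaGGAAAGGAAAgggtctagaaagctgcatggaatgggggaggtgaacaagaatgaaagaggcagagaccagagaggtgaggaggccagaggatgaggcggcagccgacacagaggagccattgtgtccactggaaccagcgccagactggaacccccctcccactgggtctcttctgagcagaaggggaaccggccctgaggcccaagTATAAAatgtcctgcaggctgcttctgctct
Efnb2, chr8:8661243-8661492, minus strand: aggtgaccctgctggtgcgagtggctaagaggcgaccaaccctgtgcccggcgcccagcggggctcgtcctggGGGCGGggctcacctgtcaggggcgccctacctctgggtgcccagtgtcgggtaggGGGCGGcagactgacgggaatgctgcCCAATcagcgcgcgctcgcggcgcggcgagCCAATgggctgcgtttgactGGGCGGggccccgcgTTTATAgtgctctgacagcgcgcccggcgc

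The Spp1 window held a RUNX match, ACCACA, from 128 to 123 bases before the start, an NFAT core, a reversed CCAAT box and a TATAAA 211 to 206 bases before it. The Lif window held an AP-1 match, TGACTCA, from 228 to 222 bases before the start, together with a RUNX and an NFAT match. The Sphk1 window held 2 NFAT cores and a TATAAA at 31 to 26 bases, and Efnb2 held 3 GC boxes, 2 CCAAT boxes and a TATAAA on the opposite strand. Of all 32851 windows of this length, 14.0% held the RUNX letters, 6.7% AP-1, 55.6% the NFAT core, 12.4% TATAAA, 33.8% CCAAT and 32.7% GGGCGG, so several of these matches are common. The remaining motifs were in 6.0% (CACGTG), 12.3% (CATGTG), 1.4% (kappaB) and 7.0% (STAT) of windows and in none of these 4. The GC content was 43.6% for Spp1, 63.6% for Lif, 55.6% for Sphk1 and 72.0% for Efnb2, where the median of all windows was 52.4%. RefSeq lists 2 starts for Spp1 and 5 for Sphk1, and the table does not say which was used. The Sphk1 start shown lies 175 bases inside the deposited gene, so part of its window belongs to that gene. Of the windows at the other Sphk1 starts, some held AP-1 and STAT matches and the others CACGTG and CCAAT matches. In all, 8 of the 10 genes had a window, and Osm and Bmp1 did not.

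Receptors of osteopontin went in both directions. Of 8 tested, 4 fell, 2 rose and 2 did not pass, Itgb1 among the latter (60.4 ± 3.58 and 61.3 ± 2.64 RPKM). Integrin beta 3, Itgb3, fell from 75.4 ± 3.65 to 43.5 ± 1.15 RPKM, and its partner chain Itgav from 31.8 ± 2.53 to 24.0 ± 0.345 RPKM. These chains form the vitronectin receptor by which osteoclasts hold bone. The hyaluronan receptor Cd44 fell from 96.4 ± 0.477 to 80.7 ± 0.586 RPKM and Itga5 from 47.9 ± 2.93 to 36.5 ± 1.37 RPKM. Itga4, a chain of the leukocyte integrin that also binds osteopontin, rose from 6.56 ± 0.549 to 8.57 ± 0.708 RPKM. Itgb5 rose from 10.8 ± 0.715 to 12.4 ± 0.815 RPKM (limma adjusted p = 0.045), with overlapping groups. It lost this call without a filter (adjusted p = 0.1), with plain variance moderation (0.054) and without OCP replicate 1 or 3 or OC replicate 2 or 3 (0.11 to 0.14). Within a library Spp1 was 3.42 to 3.97 times the level of Cd44 in OCP and 33.9 to 39.4 times in OC.

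Enzymes that modify or cut osteopontin split into 4 that rose and 3 that fell of 7 tested, of which 2 passed the filter only in OC. Acp5, the tartrate-resistant phosphatase that can remove phosphate from osteopontin, fell from 642 ± 26.8 to 338 ± 13 RPKM. Mmp9 fell from 670 ± 24.5 to 373 ± 15.3 RPKM and the crosslinking transglutaminase Tgm2 from 50.9 ± 2.78 to 33.3 ± 1.04 RPKM. Fam20c, the secretory kinase that phosphorylates osteopontin, rose from 6.51 ± 0.586 to 10.8 ± 0.349 RPKM. The metalloproteinases Mmp12 and Mmp3 rose to 1.55 ± 0.0375 and 1.35 ± 0.194 RPKM. Mmp12 was at 0.495 ± 0.114 RPKM in OCP, and Mmp3 had 4, 4 and 0 reads there. Ibsp, the bone sialoprotein of the same SIBLING gene family and a neighbour of Spp1, had 2 reads over all 6 libraries, both in a single OC library.

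**Figure D2:**
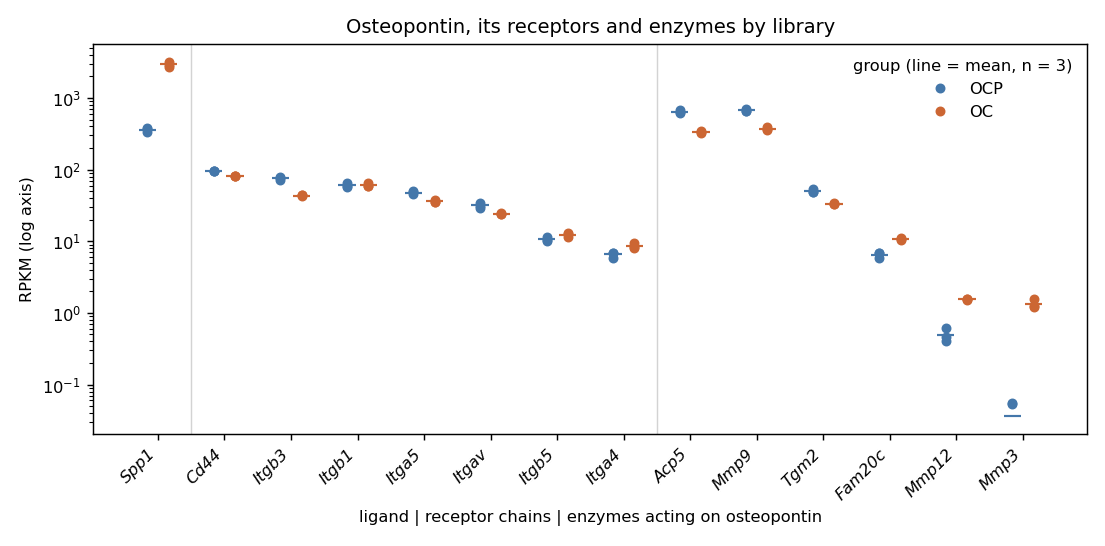
RPKM on a log axis for Spp1, 7 receptor chains and 6 enzymes, with 1 point per library and a line at the mean of 3. Spp1 is higher in OC, while Itgb3, Cd44, Acp5 and Mmp9 are lower. OCP replicate 3 had no reads for Mmp3 and has no point on this axis.

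Sphk1 makes sphingosine 1-phosphate (S1P), a lipid that draws and stimulates osteoblast precursors, and its transcript was lower in OC. It lies on chromosome 11 (116530925 to 116536674, plus strand). The OCP libraries had 4.58, 4.59 and 4.24 RPKM and the OC libraries 1.25, 1.75 and 1.55 RPKM. The groups did not overlap, and the OCP mean was 2.95 times the OC mean (log2 difference -1.12, SE 0.08, limma adjusted p = 2e-05). The other kinase, Sphk2, fell less, from 12.4 ± 0.703 to 9.97 ± 0.516 RPKM. The level of Sphk1 relative to Sphk2 within a library was 0.352 to 0.366 in OCP and 0.118 to 0.182 in OC, without overlap. An exact permutation test of 3 against 3 libraries cannot give a p under 0.1, so none is given for this ratio.

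Of the 13 S1P genes tested beside Sphk1, 6 rose, 3 fell and 4 did not pass. Transporters that can export S1P differed in direction. Spns2 fell from 6.59 ± 0.499 to 3.43 ± 0.217 RPKM, and Abcc1, the more abundant, rose from 20.5 ± 0.414 to 22.6 ± 0.567 RPKM (limma adjusted p = 0.03). Abcc1 lost this call without OCP replicate 1 or 3 or OC replicate 1 or 2 (adjusted p 0.062 to 0.1). Genes for enzymes that remove S1P also went both ways. The membrane lipid phosphatase gene Plpp3 rose from 1.29 ± 0.103 to 2.64 ± 0.0562 RPKM, while the more abundant Plpp1 fell from 10.1 ± 0.181 to 8.77 ± 0.560 RPKM (limma adjusted p = 0.022). Plpp1 lost its call with TMM factors (adjusted p = 0.11), by voom (0.13) and without OCP replicate 2 or 3 or OC replicate 1 or 2 (0.06 to 0.077). Plpp2 did not pass, at 1.35 ± 0.128 and 1.38 ± 0.256 RPKM. Within the cell, the S1P phosphatase gene Sgpp1 rose from 1.08 ± 0.0888 to 1.83 ± 0.218 RPKM and the S1P lyase gene Sgpl1 from 36.2 ± 1.13 to 42.3 ± 1.2 RPKM. The receptor S1pr1, through which S1P attracts monocytes and precursors, rose from 0.806 ± 0.0489 to 1.44 ± 0.093 RPKM. It had passed the filter only in OC. Sphk1 was below Sgpl1 in both groups, at 0.119 to 0.129 of its level within OCP libraries and 0.0287 to 0.0424 within OC libraries.

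Lif and Osm encode cytokines of the interleukin 6 family that signal through the gp130 chain and stimulate osteoblasts, and both genes rose. They are neighbours on the plus strand of chromosome 11, Osm at 4236420 to 4241026 and Lif at 4257557 to 4272514, with 21137 bases between their starts. Lif had 11.5, 11.6 and 11.2 RPKM in OCP and 22.2, 20.5 and 20.3 RPKM in OC. The groups were apart with a ratio of means of 1.83 (log2 difference 0.82, SE 0.05, limma adjusted p = 7.9e-06). Osm had 3.20, 3.90 and 3.59 RPKM in OCP and 9.18, 9.05 and 8.57 RPKM in OC, a ratio of means of 2.51 (log2 difference 1.12, SE 0.07, limma adjusted p = 7.9e-06). The lowest OC library of Osm was more than 4 RPKM above its highest OCP library. Within a library Lif was 2.97 to 3.61 times Osm in OCP and 2.26 to 2.42 times in OC.

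Their shared receptor chain Il6st, which encodes gp130, rose from 5.64 ± 0.237 to 7.36 ± 0.134 RPKM. Il6ra rose from 2.10 ± 0.0137 to 2.88 ± 0.0797 RPKM and Il11ra1, the interleukin 11 receptor, fell from 4.97 ± 0.283 to 2.61 ± 0.217 RPKM, so 2 of the 3 tested receptors rose. The specific chains for LIF and OSM were scarce: Lifr had 18 to 24 reads in OCP libraries and 28 to 42 in OC libraries, and Osmr 0 to 10 and 4 to 11. Of 8 other ligands of the family 2 were tested and both rose. Il27 went from 1.40 ± 0.195 to 15.4 ± 2.46 RPKM and Il6, which passed the filter only in OC, from 0.577 ± 0.0323 to 3.07 ± 0.331 RPKM.

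**Figure D3:**
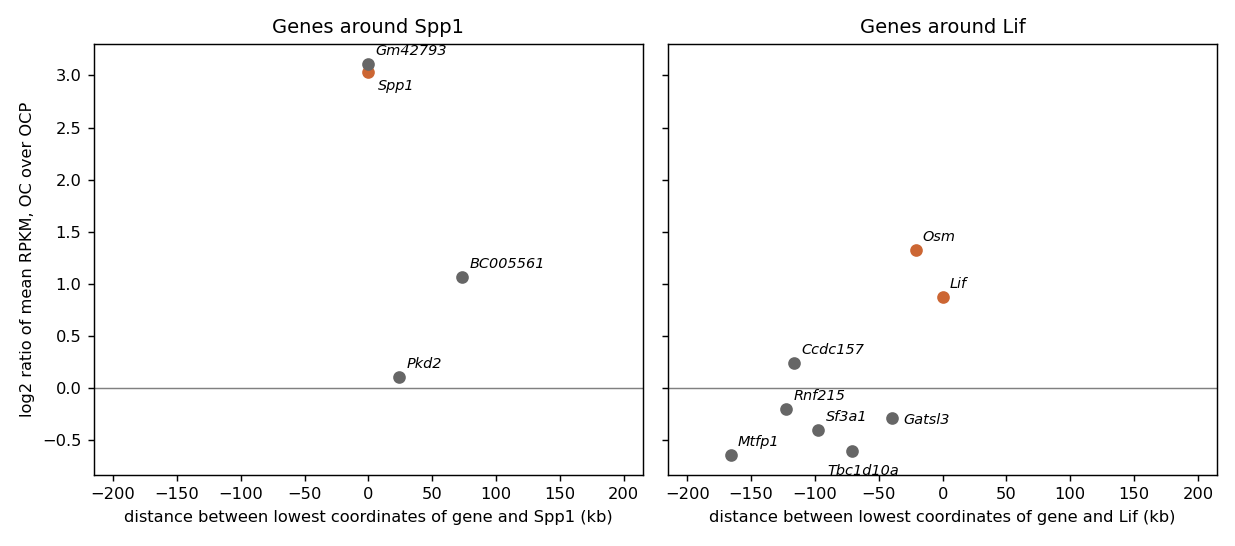
The log2 ratio of mean RPKM, OC over OCP, against the distance in kb from the lowest coordinate of Spp1 (left) and Lif (right), for protein-coding and other long genes that start within 200 kb and reach 0.3 RPKM in a group mean, without small RNAs. Spp1 and the overlapping Gm42793 stand high while Pkd2 lies near 0, and Lif and Osm are above 0 while Tbc1d10a, Sf3a1 and Mtfp1 are below it.

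Apart from Spp1, Lif and Osm, the tested protein-coding genes within 200 kb of them were Pkd2, Mtfp1, Rnf215, Sf3a1, Tbc1d10a and Gatsl3. None of these few rose and Mtfp1, Sf3a1 and Tbc1d10a fell, where 23.5% of all tested genes rose and 32.1% fell. Of the other tested genes there, Gm42793 rose, as given above, and Gm24803 did not pass. Mir3060, 83 bases long, rose from 9.25 ± 1.46 to 12.7 ± 2.28 RPKM with overlapping groups (limma adjusted p = 0.041). It did not pass without a filter (limma adjusted p = 0.098) or by voom (adjusted p = 0.15). Pkd2, which starts 24332 bases beyond the start of Spp1, had 2.79 ± 0.176 RPKM in OCP and 3.00 ± 0.273 RPKM in OC and did not pass (limma adjusted p = 0.39). BC005561, further on, was under the filter at 0.519 ± 0.136 and 1.09 ± 0.0943 RPKM and rose in the fit without a filter (limma adjusted p = 0.0093). In that fit 12.2% of all genes rose. D930016D06Rik, near Spp1 and under the filter at 0.125 ± 0.0172 and 0.238 ± 0.0653 RPKM, did not pass there (limma adjusted p = 0.14). Limma's voom fit on the recovered reads called both genes higher (adjusted p = 4.4e-06 for BC005561 and 0.011 for D930016D06Rik). In that voom fit 26.9% of 15802 genes were higher. On the other side of Osm, the GTPase regulator gene Tbc1d10a fell from 6.82 ± 0.377 to 4.48 ± 0.120 RPKM and the splicing factor gene Sf3a1 from 67.7 ± 5.16 to 51.3 ± 3.07 RPKM.

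Tgfb1, which encodes a growth factor stored in bone matrix in latent form, ranked just after Spp1 among the 10 in both groups. It lies on chromosome 7 (25687002 to 25705077). The OCP libraries had 24.6, 28.9 and 27.6 RPKM and the OC libraries 30.8, 29.5 and 29.8 RPKM. All OC values were above all OCP values, but the difference was small, with a ratio of means of 1.11 (log2 difference 0.15, SE 0.06), and did not pass (limma adjusted p = 0.079). It passed as higher after quantile normalization (adjusted p = 0.028), with TMM factors (0.026), without OCP replicate 2 (0.034) and in limma's voom fit on the recovered reads (0.009). In the voom fit 26.9% of 15802 genes were higher and 25.1% lower. Tgfb2, on chromosome 1 (186622792 to 186705989), was scarce, with 18, 34 and 16 reads in OCP and 12, 24 and 22 reads in OC. Its values overlapped (0.0990 ± 0.0424 and 0.0945 ± 0.0331 RPKM), and a difference was not detectable at this depth (voom log2 difference 0.00, SE 0.38).

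Genes that store and activate the latent growth factor were split as well: 4 of 6 tested fell and 2 rose. The latent binding proteins Ltbp1 and Ltbp3, which tether the complex to matrix, fell from 2.40 ± 0.164 to 1.15 ± 0.0794 RPKM and from 10.6 ± 0.703 to 5.99 ± 0.500 RPKM. Nrros, which presents latent growth factor on myeloid cells, fell from 12.4 ± 0.349 to 10.2 ± 0.442 RPKM, and Itgav, described above as an osteopontin receptor chain, is also the activating integrin chain. Furin, the protease that cuts the precursor, rose from 13.2 ± 0.529 to 18.8 ± 0.231 RPKM and the activator thrombospondin 1, Thbs1, from 8.77 ± 0.372 to 15.6 ± 0.751 RPKM. Of the receptors, Tgfbr1 and Tgfbr2 fell, from 16.9 ± 2.75 to 10.5 ± 1.05 and from 22.7 ± 0.272 to 17.1 ± 0.892 RPKM. Acvrl1, a type I receptor of the bone morphogenetic protein branch, rose from 2.59 ± 0.314 to 7.62 ± 0.544 RPKM.

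Igf1, insulin-like growth factor 1, which promotes growth and survival of osteoblasts, was low but higher in OC. It lies on chromosome 10 (87858265 to 87937042). The OCP libraries held 156, 186 and 118 reads (0.374, 0.473 and 0.324 RPKM) and the OC libraries 348, 301 and 378 reads (1.00, 0.915 and 1.00 RPKM). The groups did not overlap, and the ratio of means was 2.49. With 2 libraries at or above 1 RPKM it missed the filter; in the fit without a filter it was higher (limma adjusted p = 0.0022, log2 difference 0.51, SE 0.06). Adding 1 before the log shrinks the change of so low a gene, and the voom log2 difference was 1.38 (SE 0.14, adjusted p = 9.9e-09).

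Among partners of IGF1, the receptor gene Igf1r was under the filter at 0.815 ± 0.0451 and 0.656 ± 0.0691 RPKM and did not pass without a filter (limma adjusted p = 0.18), while voom called it lower (adjusted p = 0.025). Of 12 measured binding proteins and regulators of their proteases, 3 were tested. Stc2, stanniocalcin 2, an inhibitor of the protease that cuts IGF-binding proteins, went from 0.0517 ± 0.0114 to 1.85 ± 0.196 RPKM and passed the filter only in OC. The serine protease gene Htra1 fell from 3.34 ± 0.248 to 2.47 ± 0.200 RPKM. Igfbp4, the most abundant binding protein, had 9.44 ± 0.649 and 9.91 ± 0.115 RPKM and did not pass (limma adjusted p = 0.38).

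Bmp1 encodes a metalloproteinase that trims procollagen and can free growth factors from matrix proteins, and is no bone morphogenetic protein ligand in spite of its name. It lies on chromosome 14 (70474557 to 70520260, minus strand). It had 58, 52 and 42 reads in OCP and 31, 36 and 32 reads in OC. The RPKM values were lower in every OC library (0.340 ± 0.0320 and 0.249 ± 0.0345), but the gene was under the filter and passed neither without a filter (limma adjusted p = 0.24) nor by voom (log2 difference -0.41, SE 0.26, adjusted p = 0.19). None of the 4 related tolloid and enhancer genes reached 1 RPKM in any library.

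Pdgfa, the A chain of platelet-derived growth factor, a mitogen for mesenchymal cells, showed the smallest rise that passed. It lies on chromosome 5 (138976014 to 138997370, minus strand). The OCP libraries had 5.15, 5.29 and 5.25 RPKM and the OC libraries 5.72, 6.19 and 6.67 RPKM. The groups were apart by a narrow margin, and the ratio of means was 1.18 (log2 difference 0.20, SE 0.06, limma adjusted p = 0.025). The call was lost without a filter (adjusted p = 0.053) and without OCP replicate 1 or 3 or OC replicate 2 or 3 (adjusted p 0.058 to 0.088). Of its exon bases 26.1% are shared with 6330403L08Rik on the opposite strand, at 1.14 ± 0.186 and 1.27 ± 0.0731 RPKM, and how strand was used in counting is not known here. Pf4, a platelet factor gene that marks megakaryocytes and was their only tested marker, rose from 36.1 to 89.2 RPKM, and its part in the Pdgfa result was not tested. Pdgfb, the B chain, which osteoclast precursors secrete in bone, fell from 28.8 ± 2.57 to 18.0 ± 1.02 RPKM. Pdgfa was therefore 0.167 to 0.191 of the level of Pdgfb within OCP libraries and 0.298 to 0.379 within OC libraries. The receptors Pdgfra and Pdgfrb, which mark stromal cells, averaged 0.153 RPKM or less in each group.

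Efnb2 encodes ephrin-B2, the membrane ligand of osteoclasts for EphB4 on osteoblasts, and fell. It lies on chromosome 8 (8617434 to 8661242, minus strand). The OCP libraries had 4.85, 4.59 and 4.83 RPKM and the OC libraries 2.63, 2.95 and 2.54 RPKM. The groups did not overlap, and the OCP mean was 1.76 times the OC mean (log2 difference -0.64, SE 0.06, limma adjusted p = 9.7e-05). Efnb1, the related ligand, had 5.35 ± 0.225 and 4.67 ± 0.530 RPKM and did not pass (limma adjusted p = 0.10), though it did as lower without OC replicate 1 (adjusted p = 0.022). Within a library Efnb2 was 0.823 to 0.942 of the level of Efnb1 in OCP and 0.499 to 0.670 in OC. The receptor Ephb4 had 52 to 65 reads in OCP and 38 to 48 in OC, and no Eph receptor of the B class reached 1 RPKM.

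**Figure D4:**
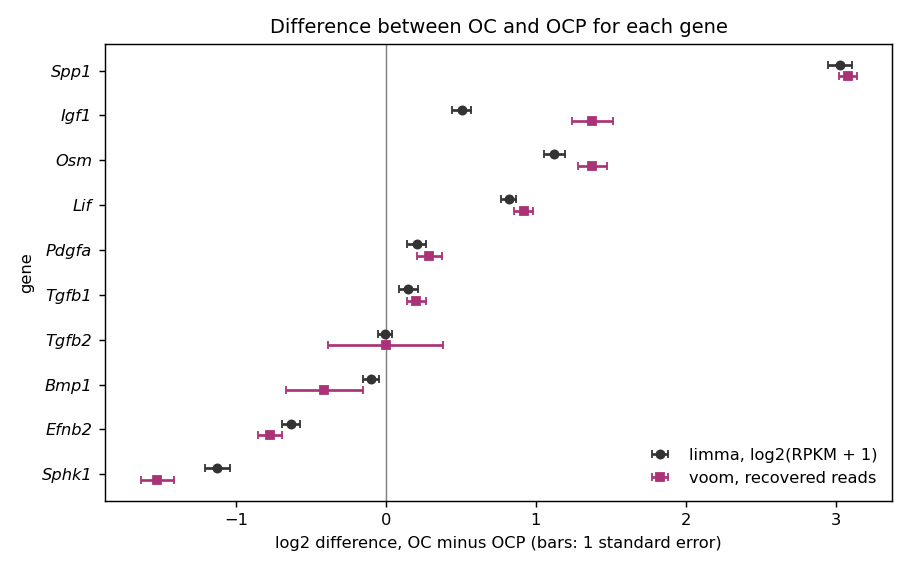
Log2 difference, OC minus OCP, for the 10 genes, with bars of 1 standard error, from limma on log2(RPKM + 1) without a filter (circles) and from voom on recovered reads (squares). Spp1 lies near 3 in both, Igf1 moves from 0.51 to 1.38 between both fits, and the bars of Tgfb2 cross 0.

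By shape and size of the profile over the 6 libraries, the genes most like Spp1 were Srgn, H2-Q4, Il1a, Ier3 and Eno1b, among 4142 protein-coding genes with a mean of at least 10 RPKM. The measure was the distance between centred log2(RPKM + 1) profiles, and it was 0.287 for Srgn and 0.518 for Eno1b. Srgn, the core protein of secretory granule proteoglycans, went from 13.3 ± 0.969 to 102 ± 3.09 RPKM. Il1a, the cytokine interleukin 1 alpha, went from 6.04 ± 0.313 to 43.8 ± 2.59 RPKM, and the immediate early gene Ier3 from 5.53 ± 0.691 to 51.4 ± 4.79 RPKM. H2-Q4 belongs to a family of similar class I genes and Eno1b is a near copy of Eno1, so their values of 56.0 ± 2.54 and 24.7 ± 1.91 RPKM in OC are uncertain. With 6 libraries in 2 groups, this likeness is mostly the size of the step between groups.

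**Figure D5:**
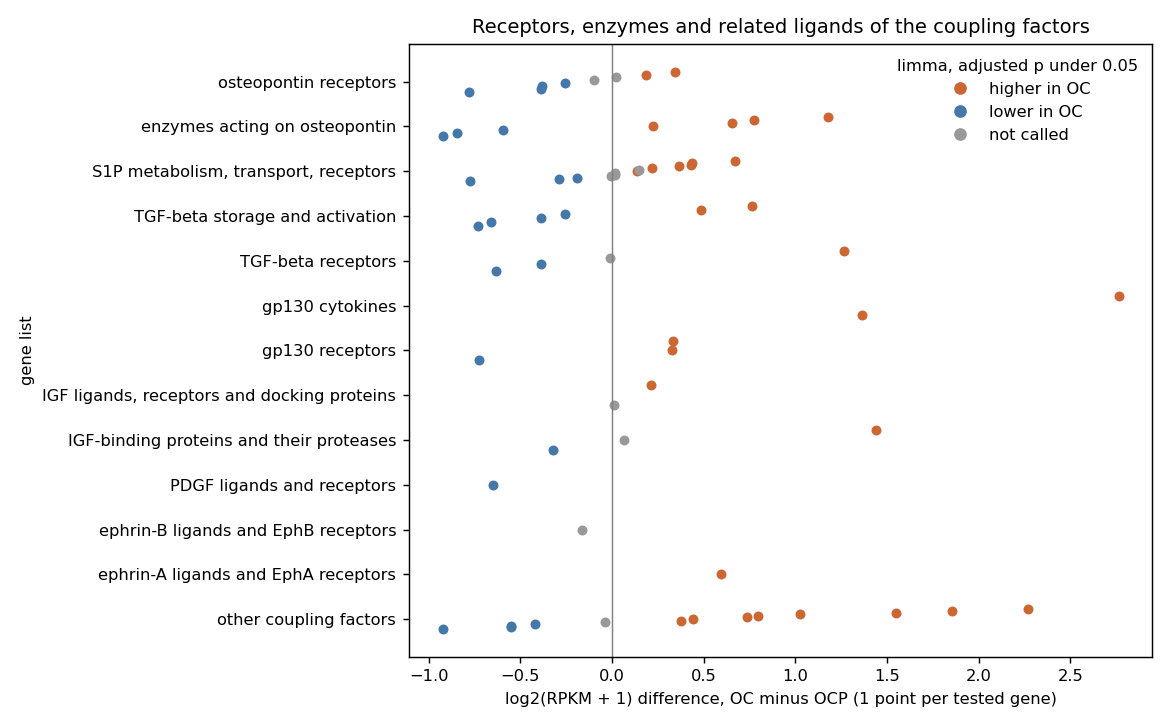
Log2(RPKM + 1) difference, OC minus OCP, with 1 point per tested gene and 1 line per list of receptors, enzymes and related ligands, coloured by call. Osteopontin receptors and latent growth factor genes spread to both sides of 0, and Il27 lies farthest to the right among gp130 cytokines.

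In all, 63 of 144 receptor, enzyme and related ligand genes on 15 lists were tested, and 30 rose and 22 fell, with a median log2 difference of 0.07. Over all tested genes 23.5% rose and 32.1% fell, with a median of -0.05. Among the list genes, exons of Sphk2 (21.9% of bases), Tgm2 (21.8%), Cxcl16 (18.3%) and Il27 (10.1%) are shared with genes on the opposite strand. Their values are therefore uncertain in the same way as that of Pdgfa.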

How the data were processed

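RNA of 3 OCP and 3 OC libraries was measured. Per the labels, RNA was extracted with TRIzol and made into libraries with a stranded mRNA kit. The tools in the submitters' processing notes are Trimmomatic 0.36, STAR 2.5.3a and featureCounts. Strand use and handling of multi-mapping reads are not given in the sources. The deposited table holds RPKM values that the authors computed, and a deposited length of each gene in bases. The notes name GRCh38, but the coordinates are of mouse genes, and 22340 rows had the same start and end in GENCODE M21 (GRCm38).

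RPKM times length gave whole reads for 100% of values within 0.01 reads. The recovered reads of Tgfb2 (18, 34 and 16 in OCP, 12, 24 and 22 in OC) and of Lifr were even in every library. Whether 2 reads stand for both ends of 1 piece of RNA was not tested. If they do, low counts rest on fewer pieces than the reads given here. Library totals were 36740844 to 42121216 reads in OCP and 33219178 to 38113266 in OC, and 3 reads at 1 kb are worth 0.0712 to 0.0903 RPKM. Both groups were compared in limma 3.58.1 (R 4.3.3), OC minus OCP, on log2(RPKM + 1) with trend and robust variance and Benjamini-Hochberg adjustment over all tested genes, two-sided. Alternatives were pseudocounts of 0.1 and 0.01, no filter, quantile normalization, TMM factors, plain variance moderation, a block for the replicate number, each library left out, and voom on recovered reads with at least 10 reads on average. The steps were tested on simulated reads. Tables and plots used Python 3.11.15. The members, lists, rules and tests were chosen with earlier results of these data known, so the lists were counted and not tested. All 10 members were named, with list genes by the size of their change, 5 genes nearest to Spp1 and the neighbours within 200 kb. Other list genes could be named whatever their value.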

Additional observations from a re-analysis of the deposited data

How the results depend on the processing

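Of 137 alternative values for the 10 genes, 125 kept direction and side of the threshold, 5 lost the call (all of Pdgfa), 4 gained it (all of Tgfb1) and 3 turned sign (all of Tgfb2, never called). The turned values of Tgfb2 were 0.00 with TMM factors, 0.03 without OCP replicate 2 and 0.02 without OC replicate 1. The count of genes higher in OC was 4, and ran from 3 to 5 with 1 library left out and reached 5 with quantile normalization or TMM factors and 6 by voom; the count lower was 2 in every alternative. Without a filter Igf1 was added and Pdgfa lost, which again gave 4. With the replicate block the counts were 4 and 2. The replicate numbers share only a number: deviations of same-numbered libraries correlated at -0.115, 0.143 and 0.014, and OCP replicate 1 was closest to OC replicate 3 (0.257).

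Of 913 alternative values for 67 of the other named genes, 885 were unchanged in direction and call, 17 lost the call (all of Itgb5, Plpp1 or Abcc1, the last also with the block), 4 gained one and 7 turned sign. Those that turned, none of them called, were Itgb1 without OCP replicate 2 (-0.02) and without OC replicate 3 (-0.01; range 0.07 down to -0.02 with 1 library left out), 6330403L08Rik after quantile normalization (-0.01), and Plpp2 after quantile normalization (-0.07) and without OCP replicate 1 or 3 (both -0.01) or OC replicate 1 (-0.07; range -0.07 to 0.08 with 1 library left out). The 4 gained were Efnb1 without OC replicate 1, Lifr by voom, and Igf1r by voom and after quantile normalization. The cause of these changes was not tested. Depth limits Tgfb2, Bmp1, Lifr and Osmr, with at most 58 reads in any library.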

Other observations

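Other factors proposed to couple resorption to formation, or known to act between osteoclasts and their neighbours, were also counted. Of 13 tested, 8 rose, 4 fell and 1 did not pass, and 1 of them passed the filter only in OC. Tnf, tumour necrosis factor, went from 22.6 ± 0.569 to 113 ± 6.50 RPKM (SD, n = 3) and the chemokine Ccl5 from 46.5 ± 0.749 to 171 ± 1.14 RPKM. Il1b went from 18.7 ± 1.65 to 56.7 ± 3.81 RPKM. Edn1, the gene that passed the filter only in OC, went from 0.872 ± 0.142 to 2.81 ± 0.345 RPKM. The complement component C3 rose from 99.6 ± 3.12 to 166 ± 5.78 RPKM, the chemokine Cxcl16 from 30.5 ± 1.84 to 53.6 ± 1.77 RPKM and the vascular growth factor Vegfa from 39.6 ± 0.512 to 54.2 ± 0.443 RPKM. Those that fell were the protease gene Ctsk (3249 ± 108 to 1711 ± 25.0 RPKM), Sema4d (46.9 ± 1.37 to 31.6 ± 1.06 RPKM), Gas6 (8.23 ± 0.603 to 5.28 ± 0.127 RPKM) and Tnfrsf11a, which encodes the receptor RANK (19.1 ± 1.02 to 14.0 ± 0.491 RPKM). The coupling ligands Wnt10b, Bmp6, Slit3 and Cthrc1 were below 1 RPKM in every library.

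Among ephrins and Eph receptors of the A class, Epha2 was the single tested gene and rose from 0.786 ± 0.0129 to 1.69 ± 0.135 RPKM, having passed the filter only in OC. Its ligand gene Efna1 was under the filter, with OCP at 1.12 ± 0.228 RPKM and OC at 0.538 ± 0.0699 RPKM, and was lower by voom (log2 difference -1.0, adjusted p = 0.0018).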
